A study of Homo sapiens with 6 samples.

Results

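NGFR, NTRK2, NTRK3, BDNF, NTF3, SORT1, and SORCS2, which encode 3 neurotrophin receptors, 2 neurotrophins, and 2 sortilin family proteins, were followed by RNA-Seq in TC28a2 cells given mocetinostat or DMSO. They are 7 of the 60623 genes counted. The genes were taken by symbol, and the set was chosen by its readout, because NGFR had one of the clearest differences between the conditions. The values of these 7 genes are therefore given as a description, without p-values. Of the 7 genes, 6 had enough counts for the fit over all genes, and NTF3 did not.

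The TC28a2 line was made by immortalizing human chondrocytes, and mocetinostat inhibits class I histone deacetylases (HDACs). Cells received mocetinostat at 2 μM, or DMSO, its solvent, for 24 hours. Each condition had 3 samples, called independent experiments in the study, and no sample received any other agent. All samples came from the same immortalized line, which limits them as a model of cartilage, and the labels name no batch. The comparison asks which genes change their RNA level with the inhibitor. Libraries held from 4873426 to 11031132 counts with DMSO and from 1619344 to 5089542 with mocetinostat, so rare RNAs were counted less precisely in treated cells. Over the 13966 genes tested, 20.2% were called upregulated and 8.18% downregulated, a call being an adjusted p under 0.05 with a log2 fold change over 1 or under -1. Without any test, all mocetinostat samples lay above all DMSO samples in 33.7% of these genes and below them in 32.8%. Levels are in CPM, a gene's counts divided by the library's total and scaled by the TMM method, and differences are log2 fold changes with their SE from edgeR. Scaling to GAPDH instead moved the median log2 fold change of all genes from -0.0021 to 0.534, so the sign of negative values closer to 0 than this depends on the scaling.

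Neurotrophins are secreted growth factors best known for keeping neurons alive and shaping their connections. They are made as proneurotrophins, which proteases cut to the mature forms. Mature neurotrophins bind the Trk receptor tyrosine kinases, among them TrkB (NTRK2) and TrkC (NTRK3), and all of them also bind p75NTR (NGFR), a member of the TNF receptor superfamily without kinase activity. Proneurotrophins bind p75NTR together with sortilin (SORT1) or the related SORCS2, a pair that is known to mediate death or growth cone retraction in neurons. p75NTR also marks some neural crest and mesenchymal progenitor cells.

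Upstream sequences were compared because the genes differed so widely in how far their levels moved. RefSeq windows of the 250 bases before an annotated start (GRCh38.p14) were matched by symbol for 5 of the 7 genes, with 14 windows in all, and NGFR and SORCS2 were not matched. Of these windows, 8 held the GC box GGGCGG on either strand, compared with 42.6% of all 35116 windows and 63.9% of the windows of genes tested. The cAMP response element TGACGTCA was in 0 of the 14 windows (1.65% of all), TATAAA in 0 (10.7% of all), and the E-box CACGTG in 1, a BDNF window (6.34% of all), each searched on both strands. The stretches shown lie before the span that GENCODE gives the gene, from the first window listed, and were picked to set NTRK3, with a large difference, beside BDNF and SORT1, with small differences, and NTF3, with almost no counts. They are written 5′ to 3′ in the direction of transcription, and capitals mark the GC box. The positions are chr15:88256792-88256989 on the minus strand for NTRK3, chr11:27722059-27722280 on the minus strand for BDNF, chr12:5431858-5432107 on the plus strand for NTF3, and chr1:109397919-109398168 on the minus strand for SORT1.
NTRK3: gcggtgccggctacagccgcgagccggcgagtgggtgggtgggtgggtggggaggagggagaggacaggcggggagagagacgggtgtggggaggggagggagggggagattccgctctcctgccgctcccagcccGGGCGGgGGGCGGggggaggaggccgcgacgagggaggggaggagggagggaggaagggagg
BDNF: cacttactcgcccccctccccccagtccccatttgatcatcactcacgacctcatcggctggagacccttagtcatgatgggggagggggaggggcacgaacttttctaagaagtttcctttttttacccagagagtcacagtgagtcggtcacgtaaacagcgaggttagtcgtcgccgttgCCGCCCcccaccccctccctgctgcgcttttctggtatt
NTF3: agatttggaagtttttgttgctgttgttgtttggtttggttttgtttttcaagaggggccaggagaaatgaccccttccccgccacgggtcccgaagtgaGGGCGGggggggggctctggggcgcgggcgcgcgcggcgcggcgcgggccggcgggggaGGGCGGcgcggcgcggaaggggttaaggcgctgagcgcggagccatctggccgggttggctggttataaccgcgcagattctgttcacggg
SORT1: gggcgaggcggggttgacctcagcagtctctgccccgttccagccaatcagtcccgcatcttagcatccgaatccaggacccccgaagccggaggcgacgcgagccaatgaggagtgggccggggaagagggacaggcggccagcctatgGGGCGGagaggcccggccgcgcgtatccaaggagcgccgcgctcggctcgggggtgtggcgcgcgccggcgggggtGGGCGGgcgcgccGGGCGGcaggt
The NTRK3 stretch held 16 CpG dinucleotides in 198 bases and 2 neighbouring GC boxes. The BDNF stretch held 12 CpG in 222 bases and 1 GC box, and BDNF had 5 windows in all. In 250 bases each, NTF3 held 28 CpG and 2 GC boxes and SORT1 32 CpG and 3 GC boxes, and the full NTRK3 window of 250 bases held 23 CpG. All 3 were above the median of 20 CpG for windows of genes tested, and the full BDNF window, with 15 CpG, was below it. The other windows of NTF3 and SORT1 held 9 and 2 CpG. Of all 14 windows of the set, 4 reached that median.

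NGFR (ENSG00000064300) encodes p75NTR, the receptor that all neurotrophins share. The gene lies on the plus strand at chr17:49495293-49515008 (GRCh38). Its raw counts in replicates 1, 2, and 3 were 30, 23, and 30 for DMSO, compared with 1393, 482, and 683 for mocetinostat. As CPM, these were 2.69, 4.75, and 4.39 with DMSO and 274, 296, and 281 with mocetinostat. Every treated sample was far above every control sample, and treated samples differed little among themselves. The mean was 3.94 CPM ± 1.10 (SD, n = 3) with DMSO and 284 CPM ± 11.5 (SD, n = 3) with mocetinostat, a log2 fold change of 6.25 (SE 0.143), equal to 76.3-fold. By the size of the log2 fold change NGFR was gene 108 of the 13966 tested. By CPM, not divided by length, it moved from rank 11379 with DMSO to rank 496 with mocetinostat among these genes.

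NTRK2 (ENSG00000148053; chr9:84668375-85095751, plus strand) encodes TrkB, the kinase receptor for BDNF and neurotrophin-4. It had 2, 2, and 0 counts in the DMSO samples and 26, 4, and 10 in the mocetinostat samples. The groups did not overlap, but the control level rested on 4 counts in all. The ratio of the summed counts, each divided by the summed TMM-scaled library sizes of its condition, was 24.96, with an exact 95% interval from 9.02 to 96.1 that covers counting error only. The mean was 0.198 CPM ± 0.207 (SD, n = 3) with DMSO and 3.89 CPM ± 1.34 (SD, n = 3) with mocetinostat, and the fitted log2 fold change was 4.40 (SE 0.706), the least precise of the 6.

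NTRK3 (ENSG00000140538; chr15:87859751-88256791, minus strand) encodes TrkC, the receptor for neurotrophin-3. Counts were 14, 7, and 13 with DMSO and 60, 19, and 24 with mocetinostat. Treated samples lay between 9.87 and 11.8 CPM and control samples between 1.26 and 1.90 CPM. The log2 fold change was 2.87 (SE 0.384), or 7.30-fold. NTRK3 therefore showed a smaller difference than NGFR, and its GC-rich upstream stretch is the first of those shown. After thinning all libraries to the smallest total, its log2 fold change was 4.38.

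BDNF (ENSG00000176697; chr11:27654893-27722058, minus strand) encodes brain-derived neurotrophic factor, the ligand of TrkB. Counts were 275, 131, and 191 with DMSO and 192, 72, and 80 with mocetinostat. The raw counts fell in a similar range because treated libraries were smaller. As CPM, control samples had 24.7, 27.1, and 27.9, and treated samples had 37.8, 44.3, and 32.9. The groups did not overlap, although treated samples were more spread than control samples. The log2 fold change was 0.52 (SE 0.159), below the size used for a call, and 1.05 under scaling to GAPDH, where the gene met the thresholds. Without the filter on low counts it was 0.27, and after thinning to the smallest library 0.69, and BDNF was called in neither.

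NTF3 (ENSG00000185652; chr12:5432108-5521536, plus strand) encodes neurotrophin-3, the ligand of TrkC. It had 0, 0, and 3 counts in control samples and 4, 1, and 1 in treated samples. The CPM of the groups overlapped, and the ratio of the summed counts over the summed TMM-scaled library sizes, 4.99, had an exact 95% interval from 1.07 to 30.9 for counting error only. This interval does not cover the spread between replicates, and the gene was below the filter on low counts; with DESeq2 and without that filter it was not called. The CpG-rich window shown for this gene stood beside the fewest counts of the 7 genes. Its other window held 9 CpG.

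SORT1 (ENSG00000134243; chr1:109309568-109397918, minus strand) encodes sortilin, a sorting receptor of the VPS10 domain family that binds proneurotrophins together with p75NTR. Counts were 1481, 551, and 777 with DMSO and 862, 335, and 470 with mocetinostat. These were 133, 114, and 114 CPM in control samples and 170, 206, and 193 CPM in treated samples. Treated samples lay above control samples without overlap. The log2 fold change was 0.64 (SE 0.0954), or 1.56-fold, below the size used for a call, and 1.17 under scaling to GAPDH, where the gene met the thresholds. Without the filter on low counts it was 0.39.

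SORCS2 (ENSG00000184985; chr4:7192538-7742836, plus strand) encodes another VPS10 receptor that binds proBDNF with p75NTR. Counts were 70, 23, and 43 with DMSO and 71, 25, and 31 with mocetinostat. These corresponded to 6.28, 4.75, and 6.29 CPM with DMSO and 14.0, 15.4, and 12.7 CPM with mocetinostat, again without overlap. The log2 fold change was 1.24 (SE 0.272). It was 0.99 when no gene was filtered out and 1.21 after thinning to the smallest library, and the gene passed the thresholds of a call in neither.

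**Figure D1:**
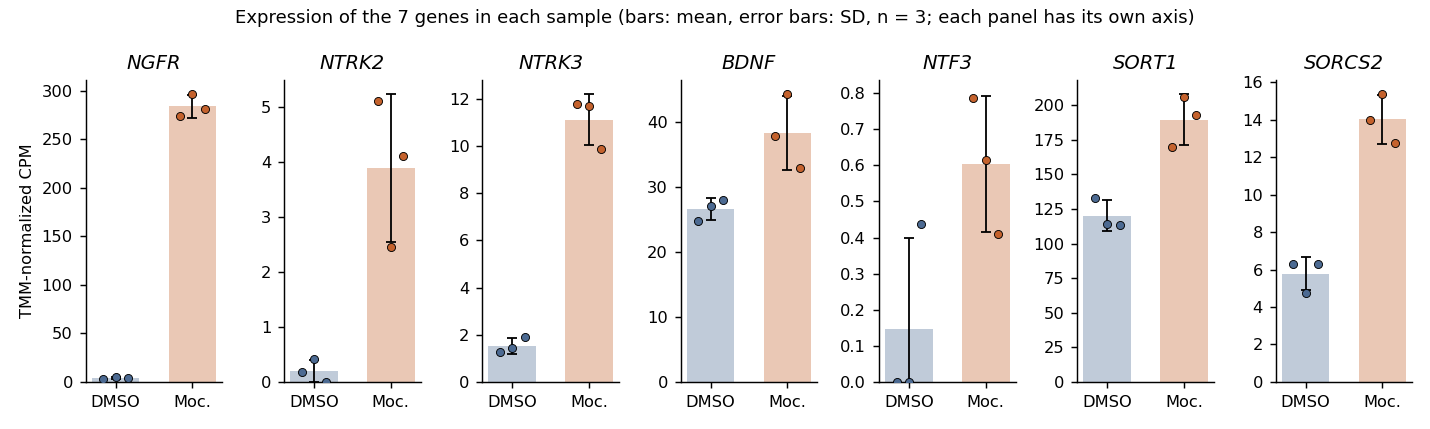
TMM-normalized CPM of the 7 genes in each sample, with a linear axis per panel that starts at 0. Points are samples, bars are means, error bars are SD (n = 3), and Moc. is mocetinostat. NGFR went from a mean of 3.94 to 284 CPM, and the samples of the 2 conditions overlapped for NTF3 alone among these genes.

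Among these 7 genes, 4 met the thresholds of a call in the upward direction (NGFR, NTRK2, NTRK3, and SORCS2) and 0 in the downward direction, beside 20.2% and 8.18% of all genes tested. All 6 tested genes had treated samples above control samples, beside 33.7% of all genes tested. Since the set was chosen on this contrast, nothing is read from these counts. The median log2 fold change was 2.06 over the 6 genes and -0.0021 over all genes tested. The receptors had log2 fold changes from 2.87 to 6.25, and BDNF, SORT1, and SORCS2 had values from 0.52 to 1.24. NTRK2 and NTRK3 passed the filter on low counts only through their treated samples, and NTF3 did not pass it. The median and these ranges are therefore a description too, and nothing is read from them.

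**Figure D2:**
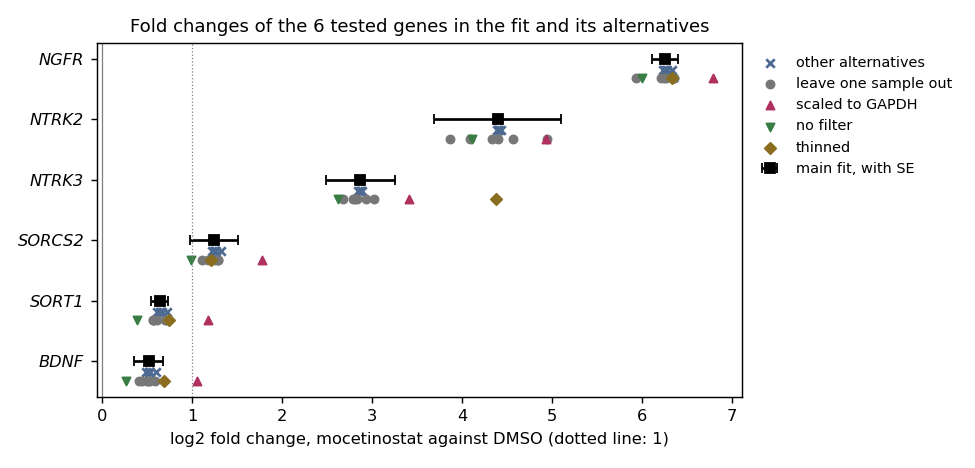
Log2 fold change of mocetinostat against DMSO for the 6 tested genes, with the main value and its SE as a square and each alternative as a smaller symbol. NGFR, at 6.25 (square), lay above the other genes under every setting drawn, and BDNF and SORT1 passed 1 (dotted line) only under scaling to GAPDH.

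Levels were compared between genes as CPM per kilobase of annotated exon. This length joins all annotated exons of a gene and was 4141 bases for NGFR, 26773 for NTRK3, and 33162 for NTRK2. The places of NTRK2 and NTRK3 therefore depend on this divisor. Without it, NTRK2 at 3.89 CPM was above NTF3 at 0.604 CPM with mocetinostat. In DMSO-treated cells, SORT1 was highest at 13.2 CPM per kb ± 1.22 (SD, n = 3), followed by BDNF at 3.43 ± 0.217. NGFR at 0.952 ± 0.265 and SORCS2 at 0.914 ± 0.140 came next, and their samples overlapped. NTRK3, NTF3, and NTRK2 were last at means of 0.0573, 0.05002, and 0.00596 CPM per kb, and neighbours in this order overlapped. In mocetinostat-treated cells, NGFR was highest at 68.5 CPM per kb ± 2.77 (SD, n = 3), above SORT1 at 20.8 ± 2.03 and BDNF at 4.95 ± 0.737. SORCS2 followed at 2.22 ± 0.208 and NTRK3 at 0.415 ± 0.0405, whereas NTF3 (0.207) and NTRK2 (0.117) overlapped. The means of the other 6 genes thus had the same order in both conditions, with NGFR moving from the third to the first place. For NTRK3, NTF3, and NTRK2 this order is not settled, because their samples overlapped with DMSO and NTF3 had 3 control counts in all.

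**Figure D3:**
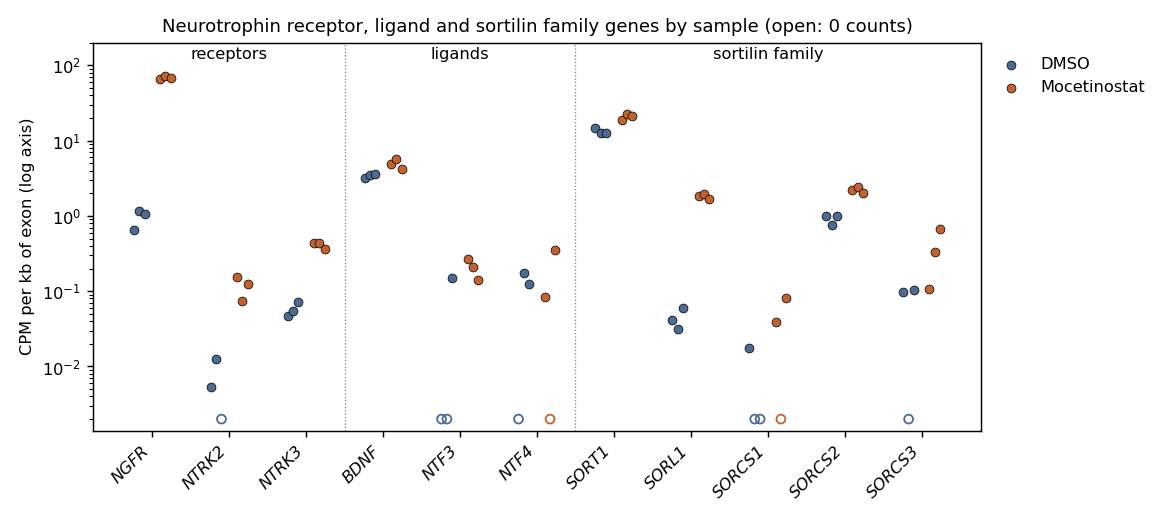
CPM per kilobase of exon on a log axis for 11 receptor, ligand, and sortilin family genes in each sample. Filled points are samples with counts and open circles at the bottom are samples with 0 counts. Treated samples of NGFR, at a mean of 68.5 CPM per kb, were above those of all other genes drawn.

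Ratios of counts within a sample do not depend on the scaling between samples. For each 100 SORT1 counts there were 2.03, 4.17, and 3.86 NGFR counts in the DMSO samples and 162, 144, and 145 in the mocetinostat samples. The receptor and coreceptor thus changed places in raw counts. For each 100 NGFR counts there were 46.7, 30.4, and 43.3 NTRK3 counts with DMSO and 4.31, 3.94, and 3.51 with mocetinostat. BDNF per 100 SORT1 counts was 18.6, 23.8, and 24.6 with DMSO and 22.3, 21.5, and 17.02 with mocetinostat, so the ratio of these genes overlapped between conditions. SORCS2 per 100 SORT1 counts ranged from 4.17 to 5.53 with DMSO and from 6.60 to 8.24 with mocetinostat, without overlap. NGFR made up 92.5% to 94.5% of the summed CPM per kb of NGFR, NTRK2, and NTRK3 with DMSO and 99.1% to 99.3% with mocetinostat. These shares depend on the long joined exons of NTRK2 and NTRK3. Not divided by length, the summed counts of NGFR, NTRK2, and NTRK3 were 83, 4, and 34 with DMSO and 2558, 40, and 103 with mocetinostat.

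Among 4 further neurotrophin and VPS10 genes outside the set, NTF4, encoding neurotrophin-4, had at most 2 counts in any sample and was not tested. SORL1, a VPS10 receptor that sorts the amyloid precursor protein and, in neurons, TrkB, had the largest difference of the 3 sortilin family genes tested. Its counts were 9, 3, and 8 in control samples and 181, 62, and 80 in treated samples. Its mean was 0.866 CPM ± 0.280 (SD, n = 3) with DMSO and 35.5 CPM ± 2.61 (SD, n = 3) with mocetinostat. It rose with a log2 fold change of 5.30 (SE 0.294; edgeR adjusted p = 2.2e-26) and was higher in 3 of 3 treated samples. SORL1 passed the filter on low counts only with its treated samples, so a fall could not have been called. SORCS1 and SORCS3 were not tested, with counts from 0 to 2 and from 0 to 9 per sample.

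Pathway genes were read from lists by role, 135 genes in all, including further neurotrophin and VPS10 genes, 28 TNF receptor superfamily genes, and 9 GDNF family genes. Of these, 111 were tested, 39 were called upregulated, and 4 downregulated, beside 20.2% and 8.18% of all genes tested. Their median log2 fold change was 0.42. The p-values that follow are from the quasi-likelihood test of edgeR, adjusted by the Benjamini-Hochberg method over all genes tested.

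Genes for the processing of proneurotrophins and the plasmin and matrix proteases that cut them numbered 14. Of the 11 tested, 7 were called upregulated and 0 downregulated, beside 20.2% and 8.18% of all genes tested. The list's median log2 fold change was 1.70, against -0.0021 over all genes tested. PCSK5, SERPINI1, and MMP3 passed the filter on low counts only with their treated samples, so nothing is read from this count or median. PCSK5, a proprotein convertase, counted 0, 0, and 8 in control samples and 72, 29, and 31 in treated samples, and rose with a log2 fold change of 5.27 (SE 0.508; adjusted p = 7.8e-15). It was 4.36 without DMSO replicate 1, and without DMSO replicate 3, where the remaining control samples held 0 counts, no fold is given. SERPINI1, which encodes neuroserpin, an inhibitor of tissue plasminogen activator, rose by 2.78 on the log2 scale (SE 0.542; adjusted p = 7.54e-06). MMP3, stromelysin-1, went from 2.46 to 17.1 CPM, a log2 fold change of 2.66 (SE 0.328; adjusted p = 6.46e-11), which was 3.47 without DMSO replicate 1 and 4.31 after thinning. The list mixes proteases with their inhibitors. FURIN, the convertase best known for cutting proneurotrophins, had 119 CPM with DMSO and 121 CPM with mocetinostat and was not called.

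Cytoplasmic and membrane partners of p75NTR had a median near that of all genes tested. Of 13 tested from 14, 3 were called upregulated and 0 downregulated, beside 20.2% and 8.18% of all genes tested. The median log2 fold change was 0.06. LINGO1, a component of the Nogo receptor complex in which p75NTR takes part, had a log2 fold change of 1.22 (SE 0.298; adjusted p = 0.000269), and was not called after thinning. MAGEH1, a MAGE family adaptor, had 1.21 (SE 0.246; adjusted p = 1.69e-05). RTN4R, the Nogo receptor itself, had 1.06 (SE 0.231; adjusted p = 5.18e-05), but 0.90 without DMSO replicate 1 and 0.90 without mocetinostat replicate 2, so that it was not called without either library. LINGO1, MAGEH1, and RTN4R were also below 1 without the filter on low counts.

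The proteases that release the ectodomain and intracellular domain of p75NTR went in both directions. All 8 genes were tested, with 1 called in each direction, beside 20.2% upregulated and 8.18% downregulated of all genes tested. The median log2 fold change was 0.32. ADAM17, the sheddase of p75NTR, went from 64.1 to 132 CPM (log2 fold change 1.04, SE 0.108, adjusted p = 1.54e-13), close to the size used for a call. It was not called without DMSO replicate 1 (0.94), without mocetinostat replicate 3 (0.98), without the filter on low counts (0.79), or after thinning (0.90). APH1A, a subunit of the gamma-secretase, fell from 62.9 to 24.4 CPM with a log2 fold change of -1.33 (SE 0.147; adjusted p = 1.35e-12). Under scaling to GAPDH it was lower by a log2 fold change of -0.79 and was not called.

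Of the 19 adaptors that Trk receptors recruit, all tested, 5 were called upregulated and 0 downregulated. This stood beside 20.2% and 8.18% of all genes tested, and the median log2 fold change was -0.14. GAB2, a docking protein for phosphoinositide 3-kinase, went from 2.84 to 23.6 CPM (log2 fold change 3.09, SE 0.301, adjusted p = 1.15e-14). PLCG2, phospholipase C gamma-2, went from 8.80 to 75.1 CPM (3.07, SE 0.159, adjusted p = 5.33e-28). SHC4, an Shc adaptor, went from 3.04 to 22.1 CPM (2.88, SE 0.274, adjusted p = 4.34e-15). After thinning, GAB2 had 2.09 and SHC4 3.56. Their relatives SHC1, PLCG1, and GAB1 were not called, with log2 fold changes of -0.51, -0.53, and -0.06.

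Kinase cascades below the Trk receptors were called about as often as all genes. Of 27 tested from 28 genes, 5 were called upregulated and 2 downregulated, beside 20.2% and 8.18% of all genes tested, and the median log2 fold change was 0.05. RPS6KA2, a ribosomal S6 kinase, went from 11.2 to 60.9 CPM (log2 fold change 2.44, SE 0.170, adjusted p = 2.99e-21). PIK3R1, a regulatory subunit of phosphoinositide 3-kinase, had 2.19 (SE 0.222, adjusted p = 6.17e-14; 1.32 after thinning), and RPS6KA5, the CREB and histone H3 kinase MSK1, had 1.42 (SE 0.207, adjusted p = 9.93e-09). NRAS had -1.07 (SE 0.116, adjusted p = 8.11e-13), and AKT2 had -1.05 (SE 0.108, adjusted p = 1e-13). NRAS and AKT2 were not called when samples were scaled to GAPDH, when 10 counts were required in every sample, or after thinning, although their values stayed below 0.

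Genes that neurotrophins are known to induce in neurons formed a further list, chosen with earlier results of these data known. ARC, EGR2, and NR4A3 passed the filter on low counts only with their treated samples. Nothing is therefore read from the count or median of this list. All 10 were tested, 9 were called upregulated, and the median log2 fold change was 2.01, beside 20.2% called and -0.0021 over all genes tested. ARC, a regulator of synaptic plasticity, went from 1.75 CPM ± 0.778 to 23.0 CPM ± 3.02 (SD, n = 3), with a log2 fold change of 3.77 (SE 0.306; edgeR adjusted p = 4.86e-18). VGF, a secreted peptide precursor of neurons and endocrine cells, went from 13.4 to 146 CPM (3.49, SE 0.144, adjusted p = 7.37e-34). EGR2, an early growth response factor, went from 1.38 to 14.0 CPM (3.38, SE 0.382, adjusted p = 3.27e-12). NR4A1, an orphan nuclear receptor, had a log2 fold change of 0.89 (SE 0.210; adjusted p = 0.000158) and was not called. These genes respond to many stimuli, and no measurement here ties their levels to a neurotrophin.

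**Figure D4:**
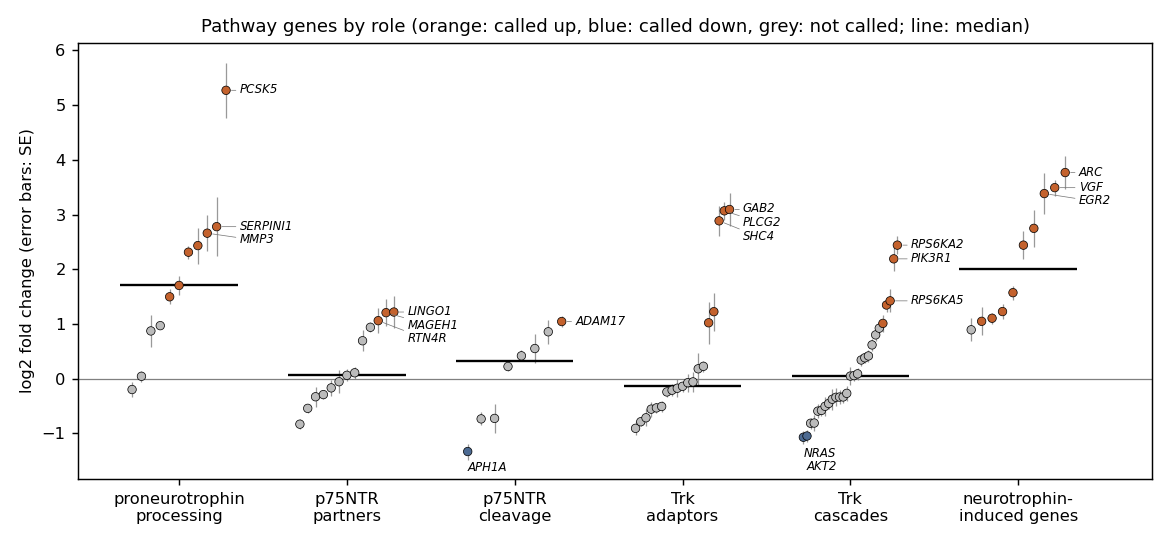
Log2 fold change of each tested gene in 6 lists of the neurotrophin pathway, with its SE as error bar. Horizontal lines are list medians, which were 1.70 for proneurotrophin processing and 2.01 for neurotrophin-induced genes and between -0.14 and 0.32 for the other lists.

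Markers of cell types were read beside NGFR, since p75NTR is known from neurons, Schwann cells, and neural crest. Chondrocyte markers, which check the labelled cell type, were uneven: SOX9 made up most of their sum, and COMP, COL9A1, SOX5, and SOX6 were at means of 0.48, 0.26, 0.27, and 0.34 CPM with DMSO. SOX9, the chondrocyte transcription factor, was at 106 CPM with DMSO and 178 CPM with mocetinostat, and COL2A1, type II collagen, was at 2.19 and 28.5 CPM. The 10 chondrocyte markers summed to 116 to 140 CPM with DMSO and 259 to 299 CPM with mocetinostat. Of 8 tested, 6 were called upregulated, beside 20.2% of all genes tested. The 8 neuron markers summed to 26.0 to 26.9 CPM with DMSO and 239 to 275 CPM with mocetinostat. Of 5 tested, 5 were called upregulated, beside 20.2% of all genes tested. INA, MAP2, ELAVL3, and SNAP25 were highest with mocetinostat, at means of 100, 71.4, 44.9, and 33.1 CPM. RBFOX3, STMN2, and ELAVL4 were not tested, with 12, 13, and 12 summed counts with mocetinostat. STMN2 was at 0 in all DMSO samples. The 8 Schwann and neural crest markers summed to 9.65 to 12.2 CPM with DMSO and 37.2 to 43.7 CPM with mocetinostat. Of 2 tested, ERBB3 and MBP, 2 were called upregulated, beside 20.2% of all genes tested. The defining SOX10 had 1 count in each condition and S100B 0 counts in all samples. Many of the called markers passed the filter on low counts only with their treated samples. These were MAP2, ELAVL3, SYT1, ERBB3, COL2A1, COMP, MATN3, and SOX5, so nothing is read from the counts of markers called. The part of these markers in the NGFR result was not tested, and in bulk samples more cells of a type and more RNA per cell cannot be told apart.

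Of the tested genes, the 4 with the profile nearest to that of NGFR over the 6 samples were BMP6, SLPI, PARM1, and MAP2. Likeness was the Euclidean distance between log2(CPM + 0.5) profiles centred on their own means, and it was 0.417 for BMP6, 0.549 for SLPI, 0.584 for PARM1, and 0.780 for MAP2. BMP6, a bone morphogenetic protein, had 0, 2, and 4 counts in control samples and 218, 80, and 112 in treated samples. MAP2, a dendritic microtubule protein and one of the neuron markers, had 8, 6, and 3 counts in control samples and 359, 117, and 174 in treated samples. All 4 had means between 0.0487 and 0.799 CPM in control samples and between 33.8 and 71.4 CPM in treated samples. Their fitted log2 fold changes, in the same order, were 7.30, 7.83, 8.98, and 6.53, all above the 6.25 of NGFR. Because their control means are close to the added 0.5 CPM or below it, that constant shrinks their differences more than that of NGFR. The distances therefore depend on it. Among the other tested genes of the set, the nearest was NTRK2, at rank 860 by this distance, and NTRK3 was at rank 898.

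Neighbouring genes on the chromosome were examined for each of the 7 genes. NXPH3, which encodes neurexophilin-3, lies 60863 bp from NGFR on the same strand and went from 0.443 to 7.37 CPM, a log2 fold change of 4.10 (SE 0.551; edgeR adjusted p = 1.01e-09). PHB, on the other side at 80388 bp, encodes prohibitin and had -0.42 (SE 0.0882), which was not called. AGTPBP1, a nearest tested gene of NTRK2 but 450788 bp from it, had 2.12 (SE 0.142; edgeR adjusted p = 4.67e-22). The nearest tested genes of NTF3, which itself had at most 4 counts, were KCNA1 at 513852 bp and VWF at 427341 bp. KCNA1 went from 0.0487 to 14.5 CPM, and VWF had a log2 fold change of 2.75 (SE 0.401; edgeR adjusted p = 9.86e-09). PSRC1, 26382 bp from SORT1, fell with a log2 fold change of -1.17 (SE 0.199; edgeR adjusted p = 4.49e-07), whereas PSMA5, 1124 bp away on the other side, had -0.23 and was not called. The nearest tested genes of BDNF, NTRK3, and SORCS2, and RMI1 on the other side of NTRK2, were not called. They lay from 15878 bp (AFAP1, SORCS2) to 2064826 bp (KLHL25, NTRK3) away.

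Since the sources used here do not state whether counting used strand, genes on the opposite strand were checked. An unnamed transcript (ENSG00000279036) covers 22.3% of the NGFR exon bases and had at most 1 count per sample, and NGFR-AS1 covers 4.88% and had 1 count in all samples together. BDNF-AS covers 12.8% of the BDNF exon bases and had 17, 8, and 4 counts in control samples and 7, 2, and 2 in treated samples, few beside those of BDNF.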

How the data were processed

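Total RNA libraries of 6 TC28a2 samples were sequenced as single reads. The authors deposited raw whole-number counts per gene, without normalization; per the labels and the paper, reads were aligned to GRCh38 with STAR 2.6.1d and assigned to genes with featureCounts 1.6.4. How the counting treated strand and reads mapping to several genes is not given in the sources used here.

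From these counts, edgeR 4.0.16 (R 4.3.3, limma 3.58.1) computed TMM factors, kept 13966 genes by filterByExpr (minimum count 10), and fitted treatment in its quasi-likelihood model, with p-values adjusted by the Benjamini-Hochberg method over all genes tested. The fit was also run on simulated counts, in which a small share of genes above the lowest levels was changed, as many up as down. These data differ from that setting, so it does not bear on the scaling or on genes with few counts. Genes with few counts in either condition passed the filter only through the other condition, so nothing is read from the direction of their calls. Ratios of low counts have exact 95% intervals on counts summed over replicates, which cover counting error only and leave out the spread between replicates. Reads carried no molecular identifiers, so counting error may be larger than these intervals show. The totals of the 6 libraries lay between 1619344 and 11031132 counts. Replicates differed by more than sampling noise (chi-square per degree of freedom 1.93 to 7.95), and each counted as 1 sample. Exon lengths, positions, and overlaps were from GENCODE 44, matched for 99.5% of gene identifiers. Python 3.11.15 with pandas 2.3.3, scipy 1.17.1, and matplotlib 3.10.9 made the summaries and figures.

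The 7 genes and all lists were chosen with earlier results of these data known. Within each pathway list, up to 3 called genes with the highest and 3 with the lowest log2 fold change were named, among genes that reached a mean of 1 CPM in either condition, besides the further neurotrophin and VPS10 genes, markers, neighbours, and the 5 genes most like NGFR; uncalled genes were free to name, and some genes under this rule are not reported here. Alternatives were scaling by RLE factors, by GAPDH, or by library size only, DESeq2 1.42.0, no filter, at least 10 counts in every sample, a replicate block, thinning to the smallest total, and leaving out each sample in turn.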

Additional observations from a re-analysis of the deposited data

How the results depend on the processing

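Of the 7 genes, 4 were called upregulated with DESeq2, RLE factors, library size only, the replicate block, and without any 1 sample, 3 without the filter on low counts (SORCS2 at 0.99 was not called), 6 with GAPDH scaling (BDNF 1.05, SORT1 1.17), 2 under a minimum of 10 counts in every sample, where NTRK2 and NTRK3 were not tested, and 2 after thinning, where NTRK2 was not tested and SORCS2 at 1.21 was not called. No log2 fold change of these genes changed sign under any of these settings. Over all genes, 2827 were called upregulated, 4425 with GAPDH scaling, 1620 under the minimum of 10, and 1873 after thinning. Downregulated calls were 1142, then 284 with GAPDH scaling, 2120 without the filter, and 704 under the minimum of 10. Upregulated genes were 71.2% of calls, 94.0% with GAPDH scaling, and 60.2% without the filter; these settings moved the median log2 fold change of all genes from -0.0021 to 0.534 and -0.253. Of the pathway genes, 4 were called downregulated, 1 with GAPDH scaling, 11 without the filter, 1 under the minimum of 10, and 1 after thinning; 39 were called upregulated, 54 with GAPDH scaling, 29 without the filter, 30 under the minimum of 10, and 34 to 41 without any 1 sample. The minimum of 10 and thinning tested fewer genes by construction, and the cause of the other changes was not tested. Same-numbered samples did not deviate together (correlations 0.00912, 0.0131, and -0.0175), so the replicate block, which gave 2798 upregulated and 1133 downregulated genes, 4 of the 7 genes, and 39 and 4 pathway genes, was not the main result. Depth limits NTF3, NTF4, SORCS1, and SORCS3, for which a difference that was not called may have been missed, and the precision of NTRK2.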

Other observations

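NGFR belongs to the TNF receptor superfamily, and 28 further genes of that family were read from the same fit, 16 of which were tested. In the quasi-likelihood test of edgeR, with p-values adjusted by the Benjamini-Hochberg method, 5 were called upregulated and 1 downregulated. This stood beside 20.2% and 8.18% of all genes tested, and the median log2 fold change was 0.44. TNFRSF11A and TNFRSF1B passed the filter on low counts only with their treated samples, and TNFRSF11B only with its control samples. Nothing is therefore read from this count. TNFRSF11A, which encodes RANK, the receptor through which RANKL drives osteoclast formation, went from 0.631 CPM ± 0.369 to 23.9 CPM ± 3.25 (SD, n = 3), with a log2 fold change of 5.05 (SE 0.354; edgeR adjusted p = 4.56e-21; 6.62 after thinning), and was higher in 3 of 3 treated samples. TNFRSF11B, which encodes osteoprotegerin, the decoy receptor for RANKL, went the other way, from 7.03 CPM ± 1.47 to 0.741 CPM ± 0.111 (SD, n = 3). Its counts were 92, 36, and 37 in control samples and 4, 1, and 2 in treated samples, and its log2 fold change was -3.17 (SE 0.515; edgeR adjusted p = 1.54e-07). TNFRSF1B, the second TNF receptor, had 4.79 (SE 0.253; edgeR adjusted p = 1.39e-27; 4.12 after thinning), and TNFRSF9, the costimulatory receptor 4-1BB, had 2.71 (SE 0.218; edgeR adjusted p = 2.97e-18). TNFRSF1A, the ubiquitous TNF receptor, was not called, with 117 CPM with DMSO and 65.7 CPM with mocetinostat.

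The GDNF family, a separate group of neurotrophic factors that signal through the kinase RET, had 9 genes listed and 6 tested. Of these 6, 3 were called upregulated and 0 downregulated, beside 20.2% and 8.18% of all genes tested. The median log2 fold change was 1.55. RET, GFRA2, and NRTN passed the filter on low counts only with their treated samples, so nothing is read from this count or median. RET had 3, 4, and 1 counts in control samples and 66, 24, and 27 in treated samples (log2 fold change 5.08, SE 0.488, edgeR adjusted p = 6.63e-15), which was 5.68 without DMSO replicate 2. GFRA2, the coreceptor for neurturin, had 3, 2, and 2 counts in control samples and 33, 15, and 24 in treated samples, a ratio of the summed counts over the summed TMM-scaled library sizes of 25.7 with an exact 95% interval from 11.8 to 66.1 for counting error only. NRTN, which encodes neurturin, had 2.19 (SE 0.544; edgeR adjusted p = 0.000319), while GDNF was not called, with 2.74 CPM with DMSO and 1.53 CPM with mocetinostat.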
